A study of Mus musculus with 8 samples.

Results

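GABA and glycine, the main inhibitory transmitters of the mature nervous system, act through 26 genes described here, which code for receptor subunits, uptake transporters, chloride carriers and the proteins around them. The genes were taken by symbol from the deposited array table, where all 26 of 26 were measured among 19938 genes tested. They hold 11 subunits of the GABA-A receptor (Gabra2, Gabra3, Gabra4, Gabra5, Gabra6, Gabrb1, Gabrb2, Gabrg1, Gabrg3, Gabrd and Gabre), both subunits of the GABA-B receptor (Gabbr1 and Gabbr2) and 4 of the glycine receptor (Glra1, Glra2, Glra3 and Glrb). The others are the chloride carriers Slc12a2 and Slc12a5, the uptake transporters Slc6a11, Slc6a13, Slc6a5 and Slc6a9, the scaffold proteins Gphn and Nlgn2, and Abat, which breaks GABA down. Of the 26, Gabrb2 was read by 3 probe sets and the others by 1 each.

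The arrays measured brain cortex RNA of mouse embryos taken on embryonic day 16, with 4 arrays labelled as VEGF overexpression and 4 as wild-type control, on a strain background given as mixed. The first group carried GFAP-tTA, a tetracycline-controlled transactivator under the promoter of the glial gene Gfap, together with TetO-VEGF-A164, a transgene for the vascular growth factor VEGF-A that the transactivator switches on. The controls are described as lacking TetO-VEGF-A164, and the labels do not say whether they carried GFAP-tTA. The effects of VEGF-A and of the transactivator or the transgene insertions therefore cannot be told apart, and nothing in the labels says whether an array held RNA of 1 embryo, of pooled embryos or of separate litters, so p-values speak only of array-to-array spread here, which may be technical. The deposited values of each probe set have their median at 0 over the 8 arrays, on a logarithmic scale read here as log2, so values show how a gene varied between arrays and not how strongly it was expressed. Whether a gene was expressed at all, and whether the tissue held the defining markers of cortex, cannot be read from such values.

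In the adult brain GABA opens chloride channels built of 5 GABA-A receptor subunits and glycine opens related channels, while the GABA-B receptor acts through G proteins. Whether the opened channel inhibits or excites a neuron depends on the chloride inside the cell. Slc12a2 (NKCC1) carries chloride in and Slc12a5 (KCC2) carries it out, and in the rodent forebrain the second carrier comes up late, around and after birth, so that GABA acts as a depolarising signal in the embryo. GABA-A receptor genes lie in clusters, and in the annotation of GRCm38.p6 Gabrg1, Gabra2, Gabra4 and Gabrb1 follow one another on chromosome 5, with Gabra4 and Gabrb1 starting in opposite directions.

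Promoter sequences from RefSeq on GRCm38.p6 are printed for a few genes chosen after their values were seen, 250 bases before the annotated start and 50 bases after it. They are the pair Gabra4 and Gabrb1, which had the highest 2 differences among the 26 genes, Gabra5, whose groups did not overlap, and Slc12a5, which spread widely within the VEGF-labelled arrays. Capitals mark the GC box GGGCGG on either strand, a motif bound by factors of the Sp family.
Gabra4 (chr5:71658259-71658558, minus strand): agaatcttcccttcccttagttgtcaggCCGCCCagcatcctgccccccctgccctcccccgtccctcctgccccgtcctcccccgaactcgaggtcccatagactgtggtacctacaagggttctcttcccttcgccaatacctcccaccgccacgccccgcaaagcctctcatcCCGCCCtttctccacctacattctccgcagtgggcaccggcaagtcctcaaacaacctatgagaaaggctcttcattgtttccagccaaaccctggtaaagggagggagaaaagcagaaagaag
Gabrb1 (chr5:71657671-71657970, plus strand): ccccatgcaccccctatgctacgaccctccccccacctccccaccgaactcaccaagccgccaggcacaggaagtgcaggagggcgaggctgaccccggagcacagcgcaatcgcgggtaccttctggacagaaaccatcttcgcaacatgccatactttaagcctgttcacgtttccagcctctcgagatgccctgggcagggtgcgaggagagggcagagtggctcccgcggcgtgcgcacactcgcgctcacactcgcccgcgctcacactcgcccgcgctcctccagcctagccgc
Gabra5 (chr7:57510010-57510309, minus strand): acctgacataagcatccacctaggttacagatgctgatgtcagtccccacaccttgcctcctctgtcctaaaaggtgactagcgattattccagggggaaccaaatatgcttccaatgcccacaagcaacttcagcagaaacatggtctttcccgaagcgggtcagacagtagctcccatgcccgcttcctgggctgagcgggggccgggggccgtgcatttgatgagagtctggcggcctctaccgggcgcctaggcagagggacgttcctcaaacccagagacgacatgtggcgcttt
Slc12a5 (chr2:164960596-164960895, plus strand): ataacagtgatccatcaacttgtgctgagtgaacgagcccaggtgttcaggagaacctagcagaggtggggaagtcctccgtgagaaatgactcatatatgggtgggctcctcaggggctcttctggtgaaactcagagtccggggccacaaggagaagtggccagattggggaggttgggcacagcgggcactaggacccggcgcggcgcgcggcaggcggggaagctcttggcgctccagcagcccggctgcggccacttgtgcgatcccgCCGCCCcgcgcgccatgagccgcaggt
The Gabra4 window held 2 GC boxes and the Slc12a5 window held 1, while the Gabrb1 and Gabra5 windows held 0 with these letters. Over all 32851 promoter windows of the same length, 35.7% held at least 1. None of the 4 windows held the TATA box TATAAA, found in 13.6% of all windows, or the cAMP response element TGACGTCA, found in 1.79%, on either strand. The count of CpG dinucleotides was 12 in the Gabra4 window, 25 in that of Gabrb1, 13 in that of Gabra5 and 21 in that of Slc12a5, against a median of 7 over all windows. The Gabrb1 and Gabra4 starts lie on opposite strands, and the genes share the 388 bases between them. Gabrb1 and Slc12a5 each have another window, not printed. Windows were at hand for 22 of the 26 genes, and not for Abat, whose groups also did not overlap.

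Vegfa, the gene the transgene carries, did not separate the groups. It was at 0.06, 0.08, -0.03 and -0.06 in the VEGF-labelled arrays 1 to 4, against -0.10, 0.04, -0.12 and 0.03 in the control arrays 1 to 4. The difference was 0.05, with p = 0.343 in an exact two-sided permutation test, so the labels are not checked by this gene. Where its probes lie relative to the transgene was not analysed here. Array medians over all probe sets lay between -0.0091 and 0.0154, and Xist gave a female pattern in 2 of 4 VEGF-labelled arrays (2 and 3) and 1 of 4 control arrays (3). Marker lists also differed between the groups without any gene past the test. Of all genes, 8628 were higher and 11310 lower. All 8 markers of thalamus and diencephalon were higher, with a median of 0.396, and 18 of 19 markers of interneurons and ventral forebrain were lower, with a median of -0.479. The lists are not separate. Calb2, at 0.36, is in both of these lists and was the only interneuron marker that was higher. Foxp2 is in the thalamus and projection neuron lists. Projection neuron markers were lower in 14 of 17 genes (median -0.273) and synapse and maturation markers in 12 of 14 (median -0.171), while mitosis markers were higher in 11 of 11 (median 0.206) and erythroid markers in 10 of 11 (median 0.216). Bulk arrays cannot tell fewer cells of a type from less RNA per cell.

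None of the 26 genes passed limma's test over all genes, in which the adjusted p had to be under 0.05, and neither did any other gene (0.0% of 19938). At an unadjusted p under 0.05, 1 member was higher, Gabra4, against 4.62% of all genes, and 5 members were lower, Gabra5, Gabrd, Slc6a13, Nlgn2 and Abat, or 19.2% of the members against 7.84% of all genes. The 2 groups did not overlap in 2 members, Gabra5 and Abat, both lower in the VEGF-labelled arrays, or 7.69% of the members, against 4.71% of all genes lower and 2.13% higher without overlap, 6.84% in all. The share of members without overlap is thus close to the background. The median difference over the 26 genes was -0.0623, against -0.0103 over all genes. Of the members 10 were higher and 16 lower, and of all genes 8628 were higher and 11310 lower. Without VEGF 3 the median of the members was 0.0216, against -0.0057 over all genes. At an unadjusted p under 0.05, 3 members were then lower, as were 1210 of all 19938 genes. Without control 1, control 2 or control 4 there were 2 lower members, beside 1047, 1195 and 1045 of all genes. The plot of differences with their intervals shows the members by role.

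**Figure D1:**
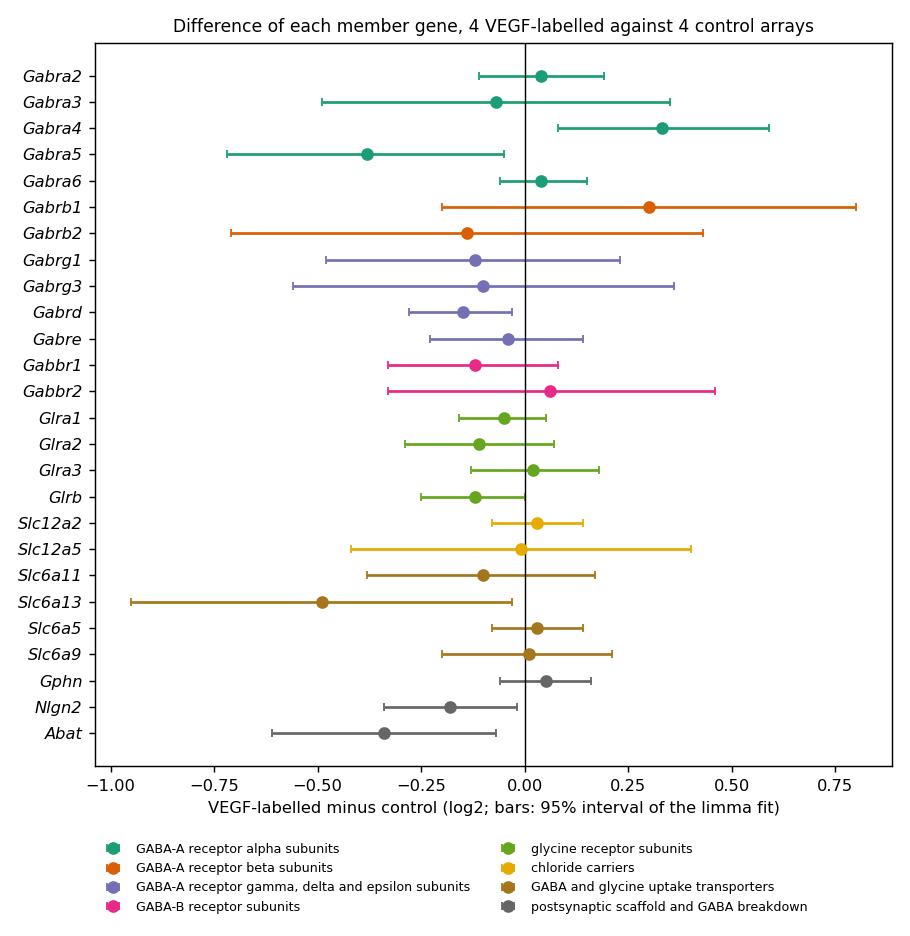
Difference of each of the 26 genes on the log2 scale (horizontal axis, VEGF-labelled minus control, n = 4 each), with the 95% interval of the limma fit, by role of the gene. The intervals of Gabra4 on the higher side and of Gabra5, Gabrd, Slc6a13, Nlgn2 and Abat on the lower side leave out 0, before any adjustment.

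Among the alpha subunits, which with gamma subunits shape the drug sensitivity and placement of the GABA-A receptor, Gabra4 and Gabra5 differed in opposite directions. Gabra4, in the adult a subunit of extrasynaptic receptors in thalamus, hippocampus and striatum, was at 0.29, 0.33, 0.17 and -0.10 in the VEGF-labelled arrays 1 to 4, against -0.05, 0.05, -0.34 and -0.31 in the control arrays 1 to 4. VEGF 4 lay below control 1 and control 2, and the other VEGF-labelled arrays lay above every control array. The difference was 0.33 with an SE of 0.114 (limma, adjusted p = 0.304). With the mean of the thalamus and diencephalon markers as a covariate, an alternative chosen after seeing the data, the difference was 0.161 and no longer under an unadjusted p of 0.05 (limma, adjusted p = 0.518).

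Gabra5, a subunit abundant in hippocampal neurons and expressed early in forebrain development, was at -0.06, -0.01, -0.72 and -0.16 in the VEGF-labelled arrays, against 0.34, 0.11, 0.01 and 0.12 in the control arrays. All VEGF-labelled arrays lay below all control arrays, VEGF 2 and control 3 by a gap smaller than the spread within either group, and VEGF 3 was far lower than the rest. The difference was -0.38 with an SE of 0.148 (limma, adjusted p = 0.348). Without VEGF 3 it was -0.222, and without control 1 or control 4 it was no longer under an unadjusted p of 0.05.

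Gabra3, an alpha subunit prominent in the embryonic forebrain and coded on the X chromosome, spread widely within the VEGF-labelled group. It was at 0.38, 0.27, -0.47 and -0.33 in the VEGF-labelled arrays, against 0.04, 0.23, -0.09 and -0.04 in the control arrays. VEGF 1 and VEGF 2 lay above all control arrays and VEGF 3 and VEGF 4 below all of them, so the difference of the means, -0.07 with an SE of 0.185, describes no array. The female-pattern arrays VEGF 2, VEGF 3 and control 3 did not share a level. Gabra2, the neighbour of Gabrg1 on chromosome 5, differed by 0.04 (SE 0.0663) and Gabra6, in the adult a subunit of cerebellar granule cells, by 0.04 (SE 0.0469).

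In both beta subunits, a part of every common GABA-A receptor, VEGF 1 and VEGF 2 lay above VEGF 3 and VEGF 4. Gabrb1 was at 0.67, 0.74, -0.18 and -0.08 in the VEGF-labelled arrays, against 0.08, 0.28, -0.25 and -0.16 in the control arrays. It is named beside Gabra4 because the promoters of the pair face each other, a choice made after its values were seen. Its difference was 0.30 with an SE of 0.22 (limma, adjusted p = 0.649), close in size to that of Gabra4 but with a spread over the VEGF-labelled arrays of 0.91, against 0.43 for Gabra4. The difference of Gabrb1 was 0.173 without VEGF 1, 0.15 without VEGF 2 and 0.455 without VEGF 3, and it turned to -0.0776 with the thalamus marker mean as a covariate. In both genes VEGF 2 was the highest array and control 3 the lowest. Which strand of this overlapping pair the probes read was not analysed here. The other 2 genes of the same cluster did not share the pattern. Gabra2 was highest in VEGF 4, and Gabrg1 was highest in control 1 and lowest in VEGF 3.

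Gabrb2, a beta subunit that rises as cortical synapses mature, had the widest range of the 26 genes within the VEGF-labelled arrays, 1.3, against 0.46 in the control arrays. Its mean over 3 probe sets was 0.23, 0.38, -0.92 and -0.31 in the VEGF-labelled arrays, against 0.20, -0.02, -0.25 and 0.02 in the control arrays. The probe sets gave differences of -0.14, -0.18 and -0.11, and in each of them VEGF 3 was the lowest array. The difference of the means was -0.14 with an SE of 0.252, and it was 0.113 without VEGF 3.

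All 4 gamma, delta and epsilon subunits had lower means in the VEGF-labelled arrays with all arrays in the fit, and Gabrd was below an unadjusted p of 0.05. Gabrd, the subunit of tonic, extrasynaptic receptors, was at -0.10, -0.21, -0.10 and 0.02 in the VEGF-labelled arrays, against -0.02, 0.12, 0.02 and 0.11 in the control arrays. Its highest VEGF-labelled array, VEGF 4, lay above control 1, so the groups overlapped. The difference was small, -0.15 with an SE of 0.0542 (limma, adjusted p = 0.314), and VEGF 3 did not stand apart. It was no longer under that p without control 2, without control 4 or with the thalamus marker mean as a covariate.

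Gabrg3 was at 0.21, 0.34, -0.65 and -0.31 in the VEGF-labelled arrays, against 0.09, 0.21, -0.09 and -0.22 in the control arrays, again with VEGF 1 and VEGF 2 high and VEGF 3 lowest, and its difference was -0.10 (SE 0.205). Gabrg1 had the same order within the VEGF-labelled group, 0.22 in VEGF 2 and -0.48 in VEGF 3, and differed by -0.12 (SE 0.156). Without VEGF 3, Gabrg3 was at a difference of 0.084 and Gabrg1 at 0.00337, so the lower means of both rested on that array. Gabre, an X-linked subunit, differed by -0.04 (SE 0.0818). Its highest array was control 3, at 0.28, and without that array the difference was 0.0326.

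The GABA-B receptor works only as a pair of its 2 subunits, of which Gabbr1 binds GABA and Gabbr2 couples to the G protein. Gabbr1 was at 0.10, -0.02, -0.37 and -0.11 in the VEGF-labelled arrays, against 0.02, 0.11, -0.07 and 0.02 in the control arrays. Gabbr2 was at 0.36, 0.25, -0.48 and -0.08 in the VEGF-labelled arrays, against 0.13, 0.08, -0.31 and -0.08 in the control arrays. Both subunits were lowest in VEGF 3, followed by VEGF 4 for Gabbr1 and control 3 for Gabbr2. The differences were -0.12 (SE 0.0906) and 0.06 (SE 0.176), and neither passed the unadjusted threshold. Without VEGF 3 the difference of Gabbr1 was -0.0322. That of Gabbr2 was 0.227 without VEGF 3, and it was -0.0538 without VEGF 1, -0.016 without VEGF 2 and -0.0267 without control 3.

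None of the 4 glycine receptor genes was under an unadjusted p of 0.05 with all arrays in the fit. Glrb, the beta subunit that ties the receptor to gephyrin, was at -0.20, 0.01, -0.13 and -0.01 in the VEGF-labelled arrays, against 0.09, -0.04, 0.04 and 0.07 in the control arrays. Its groups overlapped through control 2, and the difference was -0.12 with an SE of 0.0551 (limma, adjusted p = 0.406). Glrb was under an unadjusted p of 0.05 in 5 of 18 settings, which were the trended and robust prior, array weights, and leaving out VEGF 2, VEGF 4 or control 2. Glra2, the X-linked alpha subunit of embryonic glycine receptors, was at 0.07, -0.03, -0.34 and -0.06 in the VEGF-labelled arrays, against 0.03, 0.07, -0.05 and 0.03 in the control arrays. Apart from VEGF 3, every array lay within 0.1 of 0, and the difference was -0.11 with an SE of 0.0803 (limma, adjusted p = 0.642), or -0.0264 without VEGF 3. Glra1, the adult subunit of spinal cord and brainstem, differed by -0.05 (SE 0.0476), and Glra3 by 0.02 (SE 0.0705). The 11 measured hindbrain and spinal cord markers had a median difference of -0.00331, and their list mean lay between -0.104 and 0.0547 in the VEGF-labelled arrays and between -0.0379 and 0.0664 in the control arrays.

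**Figure D2:**
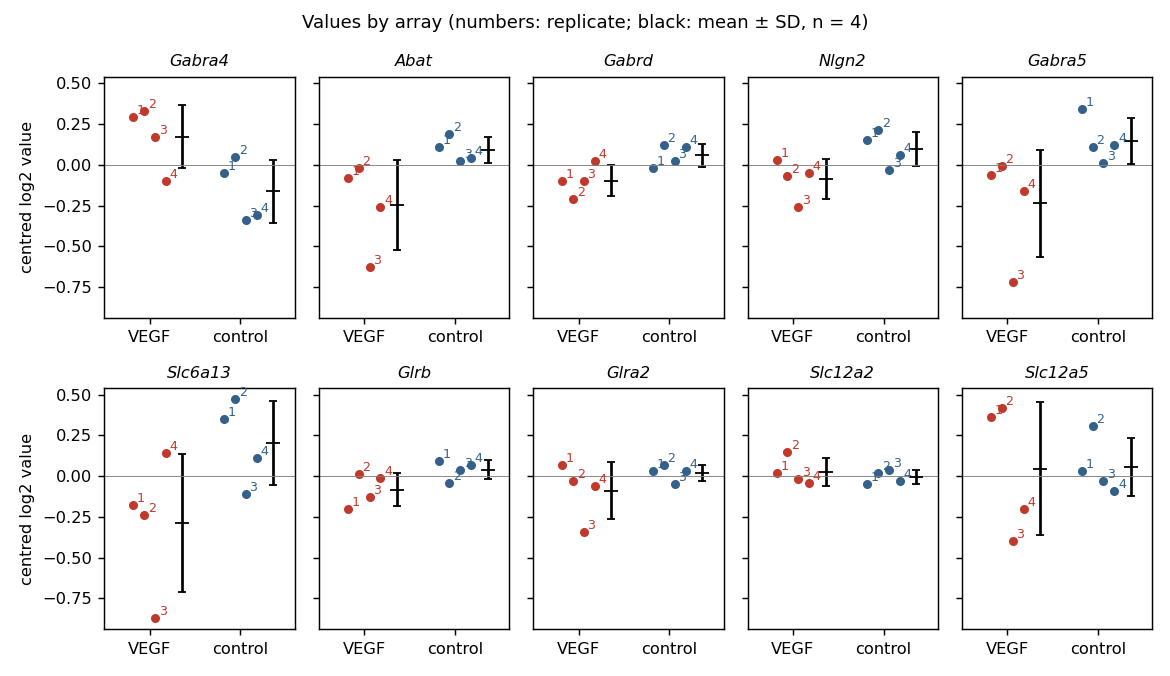
Centred log2 value (vertical axis) of the 8 members of smallest p and of both chloride carriers in each array, VEGF-labelled at the left and control at the right of each panel, with replicate numbers and the mean ± SD (n = 4). VEGF 3 is the lowest array for Abat, Gabra5, Slc6a13, Nlgn2, Glra2 and Slc12a5, but not for Gabra4, Gabrd or Glrb.

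The chloride carriers did not differ between the groups beyond their spread. Slc12a5 was at 0.36, 0.42, -0.40 and -0.20 in the VEGF-labelled arrays, against 0.03, 0.31, -0.03 and -0.09 in the control arrays. The group means were alike, 0.05 ± 0.41 in the VEGF-labelled arrays and 0.05 ± 0.18 in the control arrays (SD, n = 4 each), but VEGF 1 and VEGF 2 lay above every control array while VEGF 3 and VEGF 4 lay below every one. The difference was -0.01 with a 95% interval of -0.42 to 0.40, which leaves room for a change in either direction. Slc12a2, which loads neurons, glia and progenitors with chloride, was at 0.02, 0.15, -0.02 and -0.04 in the VEGF-labelled arrays, against -0.05, 0.02, 0.04 and -0.03 in the control arrays. Its difference was 0.03 with a 95% interval of -0.08 to 0.14.

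The balance of the pair, Slc12a5 minus Slc12a2 in the same array, was 0.34, 0.27, -0.38 and -0.16 in the VEGF-labelled arrays, against 0.07, 0.29, -0.07 and -0.07 in the control arrays. VEGF 1, VEGF 2 and control 2 were the high arrays, VEGF 3 and VEGF 4 the low ones. On centred values this balance says only how the arrays differ, not which carrier was more abundant. The means were 0.02 ± 0.35 in the VEGF-labelled arrays and 0.06 ± 0.17 in the control arrays (SD, n = 4 each), with p = 0.8 by exact permutation (two-sided), where 70 arrangements allow a smallest p of 0.0286. Of 6 kinases that set the activity of these carriers, Stk39 was higher and Wnk2 lower at an unadjusted p under 0.05. Of all genes, 4.62% were higher and 7.84% lower at that p. Stk39 was named after its values were seen, and they are not given here. Wnk2 was at -0.02, -0.11, -0.16 and -0.06 in the VEGF-labelled arrays, against 0.10, 0.06, 0.02 and 0.04 in the control arrays, a difference of -0.14 with an SE of 0.0393 (limma, adjusted p = 0.243).

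**Figure D3:**
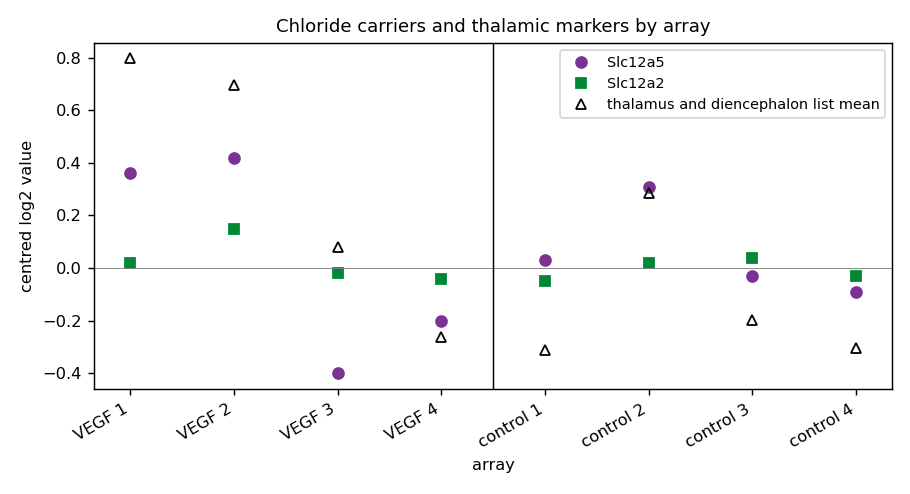
Centred log2 value (vertical axis) of the chloride carriers Slc12a5 (circles) and Slc12a2 (squares), and the mean of the thalamus and diencephalon marker list (triangles), in each VEGF-labelled array (left) and control array (right). VEGF 1, VEGF 2 and control 2 are the 3 highest arrays for Slc12a5 and for the marker list, while Slc12a2 spans a narrow range.

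Of the uptake transporters, which end the transmitter's action, Slc6a13 had the largest difference of the 26 genes in absolute size. Slc6a13 (GAT2), a GABA transporter known from meninges, vessels and choroid plexus rather than neurons, was at -0.18, -0.24, -0.87 and 0.14 in the VEGF-labelled arrays, against 0.35, 0.47, -0.11 and 0.11 in the control arrays. VEGF 4 lay above control 3 and control 4, and VEGF 3 was the lowest array by a wide margin. The difference was -0.49 with an SE of 0.203 (limma, adjusted p = 0.375). It was under an unadjusted p of 0.05 in 9 of 18 settings, and no longer so when any array but VEGF 4 or control 3 was left out. Without VEGF 3 it was -0.298.

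Single markers of meninges and pericytes had a like order of arrays, and their lists as a whole did not differ one way. Of 11 meningeal and fibroblast markers 6 were higher and 5 lower, with a median of 0.0186, and of 10 pericyte and smooth muscle markers 4 were higher and 6 lower, with a median of -0.0289. Slc22a6, a meningeal transporter, was at -0.16, -0.22, -0.78 and 0.28 in the VEGF-labelled arrays, against 0.15, 0.53, -0.12 and 0.12 in the control arrays, so its lowest and highest arrays were those of Slc6a13. Vtn, a pericyte marker, ran likewise from -0.71 in VEGF 3 to 0.45 in control 2, and Cldn5 of the endothelium list from -0.46 to 0.36 in the same arrays. Crabp2 of the meningeal list differed by 0.21, Tagln of the pericyte list by 0.15 and Otx2 of the choroid plexus list by 0.4, opposite in sign to Slc6a13. Of 8 choroid plexus markers 2 were higher and 6 lower, with a median of -0.0985. Among the lower ones Folr1 differed by -0.14, lowest in VEGF 3 and highest in control 2, as was Slc6a13. The mean of the meningeal and fibroblast markers, 0.0443 in VEGF 1 and 0.102 in VEGF 2, where Slc6a13 was low, lay between -0.373 and 0.102 in the VEGF-labelled arrays and between -0.207 and 0.147 in the control arrays, and that of the pericyte and smooth muscle markers between -0.256 and 0.0673 in the VEGF-labelled arrays and between -0.145 and 0.0992 in the control arrays. The part of such cells in the values of Slc6a13 was not tested.

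Slc6a11 (GAT3), the GABA transporter of astrocytes, differed by -0.10 (SE 0.122) and was lowest in VEGF 3, at -0.38. Without VEGF 3 its difference was -0.00469. Slc6a9 (GlyT1), the glial glycine transporter, differed by 0.01 (SE 0.0921). Slc6a5 (GlyT2), the transporter of glycinergic neurons in hindbrain and spinal cord, differed by 0.03 (SE 0.0501).

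Abat, the mitochondrial GABA transaminase, was with Gabra5 the gene whose groups did not overlap. It was at -0.08, -0.02, -0.63 and -0.26 in the VEGF-labelled arrays, against 0.11, 0.19, 0.02 and 0.04 in the control arrays. VEGF 3 and VEGF 4 were well below the rest, while VEGF 2 came within a small gap of control 3. The difference was -0.34 with an SE of 0.119 (limma, adjusted p = 0.314), and -0.213 without VEGF 3. Without control 2 it was no longer under an unadjusted p of 0.05.

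At the postsynaptic side, Nlgn2, the adhesion protein of inhibitory synapses, was at 0.03, -0.07, -0.26 and -0.05 in the VEGF-labelled arrays, against 0.15, 0.21, -0.03 and 0.06 in the control arrays. VEGF 1 lay above control 3, so the groups overlapped. The difference was -0.18 with an SE of 0.0708 (limma, adjusted p = 0.345), and Nlgn2 was no longer under an unadjusted p of 0.05 without VEGF 3, control 1 or control 2. Gphn (gephyrin), the scaffold under glycine and GABA-A receptors, differed by 0.05 with an SE of 0.0484, and its arrays lay between -0.06 in control 3 and 0.14 in VEGF 2.

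The members varied more than the median gene, both within the VEGF-labelled group and between the groups. Their median absolute difference between the groups was 0.0995, against 0.0463 over all genes. The SD was larger in the VEGF-labelled than in the control arrays for 24 of the 26 genes, against 68.5% of all genes, with Gabre and Slc6a5 as the exceptions. The median SD of the members was 0.188 in the VEGF-labelled and 0.108 in the control arrays, and over all genes it was 0.0803 in the VEGF-labelled and 0.0594 in the control arrays. The range over the 8 arrays was above 0.5 in 12 members, against 9.17% of all genes. These shares describe the members, and no test was run over them.

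VEGF 3 was the lowest of the 8 arrays for 15 of the 26 genes, or 57.7%, against 22.2% of all genes, and it was the highest for none of them. Its median over the members was -0.217, against 0.084 in VEGF 1, 0.0811 in VEGF 2 and -0.077 in VEGF 4. The control medians were 0.0445, 0.0824, -0.0381 and -0.0273. In VEGF 3, 13 members lay below -0.2 and none above 0.2. The same array had the lowest mean of the interneuron and ventral forebrain markers, -0.631, against -0.186 to -0.0921 in the other VEGF-labelled arrays and 0.0253 to 0.3 in the control arrays. It also had the lowest mean of the synapse and maturation markers, -0.265, and the highest of the mitosis markers, 0.278. Lists of other cells were lowest in VEGF 3 too: meninges and fibroblasts (-0.373), endothelium (-0.262), pericytes (-0.256), choroid plexus (-0.197) and astrocytes (-0.134). For the projection neuron, thalamus, hindbrain, erythroid and microglia lists another array was lowest. The part of these cell populations in the members' values was not tested.

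VEGF 1 and VEGF 2 both lay above VEGF 3 and VEGF 4 for 19 of the 26 genes, or 73.1%, against 22.9% of all genes, a pattern described after the values were seen. The gap was above 0.3 in 7 members, Gabra3, Gabrb1, Gabrb2, Gabrg1, Gabrg3, Gabbr2 and Slc12a5, or 26.9%, against 1.8% of all genes. In 7 members, Gabra3, Gabra6, Gabrb1, Gabrg3, Slc12a5, Slc6a9 and Gphn, the 3 highest arrays were VEGF 1, VEGF 2 and control 2, against 5.77% of all genes. Those were also the 3 arrays with the highest mean of the thalamus and diencephalon markers, 0.797, 0.697 and 0.284, against 0.0799 in VEGF 3 and -0.261 in VEGF 4, and -0.312 to -0.199 in the other control arrays. The choroid plexus markers had the same 3 highest arrays, with list means of 0.212 in VEGF 1, 0.146 in VEGF 2 and 0.236 in control 2, against -0.197 to 0.0318 in the others. With the thalamus and diencephalon marker mean as a covariate, 7 members were lower at an unadjusted p under 0.05, or 26.9%, against 7.8% of all genes. None was higher, against 3.73% of all genes. Among the lower members were Gabra3 at -0.389, Gabrg3 at -0.413 and Slc12a5 at -0.322, and no gene passed the test over all genes. The part of thalamic or choroid plexus tissue in these values was not tested.

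**Figure D4:**
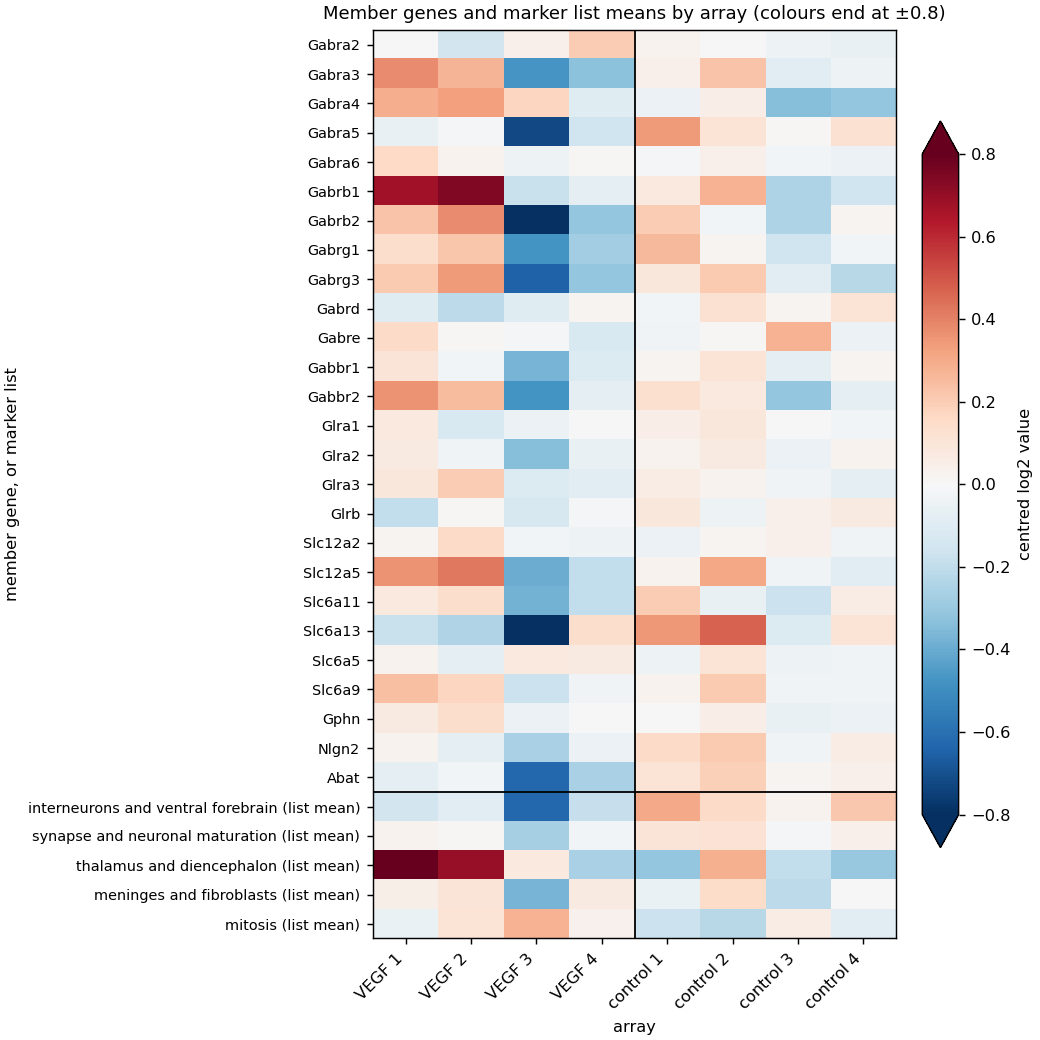
Centred log2 values by array (columns, VEGF-labelled left of the line, control right of it) for the 26 genes (rows above the line) and the means of 5 marker lists (rows below it), red above and blue below the gene's median. VEGF 3 is blue across most GABA-A and GABA-B receptor genes, Slc12a5 and Abat, and VEGF 1 and VEGF 2 are red for Gabra3, Gabrb1, Gabrb2, Gabrg3 and Slc12a5.

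On the sending side of the GABA synapse no gene passed either. Of 5 measured genes of GABA synthesis, vesicle loading and breakdown, 4 were lower, with a median of -0.336. Slc32a1, the vesicular GABA transporter, was at -0.06, -0.09, -0.36 and -0.13 in the VEGF-labelled arrays, against 0.29, 0.19, 0.06 and 0.16 in the control arrays, without overlap. The difference was -0.34 with an SE of 0.0724 (limma, adjusted p = 0.243). Gad2 and Gad1, the enzymes that make GABA, differed by -0.48 (SE 0.191) and -0.36 (SE 0.173), and both were lowest in VEGF 3, at -1.05 and -0.83. Without VEGF 3 the differences were -0.26 for Gad2 and -0.191 for Gad1. In Gad2 the groups did not overlap, and in Gad1 they did. These 3 genes are also among the interneuron markers.

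Over all 67 measured genes around the pathway, of 76 listed, none passed over all genes and the median difference was -0.0223. At an unadjusted p under 0.05, 8 were lower, or 11.9% against 7.84% of all genes, and 3 were higher, or 4.48% against 4.62%. Receptor trafficking genes and synapse organisers leaned one way, with 19 of 23 lower and a median of -0.0943. Mocs1, which like gephyrin serves the molybdenum cofactor pathway, differed by -0.18, Plcl1, a partner of GABA-A receptor trafficking, by -0.16, and Trak1, an adaptor of kinesin transport, by -0.22 (limma, adjusted p 0.243, 0.243 and 0.245). In each of these 3 genes all VEGF-labelled arrays lay below all control arrays, though in Trak1 VEGF 4 and control 3 both rounded to 0.0. Of the 67 genes, 6 were lower without overlap and 2 higher, against 4.71% and 2.13% of all genes. All 6 genes of glycine synthesis and breakdown had higher means, with a median of 0.136. Beside the mitosis markers, all higher, radial glia markers were higher in 9 of 12 genes with a median of 0.0771. VEGF 3 had the highest mean of all 3 lists, 0.21 for the glycine genes, 0.278 for mitosis and 0.134 for radial glia, and the part of such cells in the glycine genes was not tested. Gcsh, the carrier protein of the glycine cleavage system, was at 0.08, 0.14, 0.24 and 0.02 in the VEGF-labelled arrays, against -0.03, -0.16, -0.02 and -0.12 in the control arrays, without overlap, and differed by 0.21 (limma, adjusted p = 0.243). Other receptor subunits (6 measured, median 0.015), GABA-B auxiliary and effector genes (10 measured, median 0.0107) and other transporters and chloride carriers (11 measured, median -0.0201) lay near 0.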

How the data were processed

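Whole-transcript Affymetrix arrays of 8 cortex samples were used. The input was 120 ng of RNA, amplified and biotin-labelled, per the labels' protocols. The deposited values of 28853 probe sets were read as log2 from their range (no source states the base), each centred on its median over the arrays (largest median 5e-07 from 0). Affymetrix Expression Console and mm8 stand in the submitters' processing notes. How background was corrected and probes summarised is not given in those sources. Signal over background is unknown, so no dim probe set was filtered out. Of the probe sets, 21789 had 1 symbol in the platform annotation, 1621 several and 5443 none; symbols were updated by Entrez identifier to GRCm38.p6. Probe sets were averaged per gene, giving 19938 genes.

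VEGF-labelled and control arrays were compared with limma 3.58.1 in R 4.3.3 (lmFit and eBayes, no covariates, two-sided, Benjamini-Hochberg over all genes). The code was tested on simulated data. Vegfa and the carrier balance were compared by exact permutation. The members and lists were chosen with earlier results of these data known. Values in every array were given for the 8 members of smallest p and both chloride carriers, and, after their values were seen, for Gabra3, Gabrb1, Gabrb2, Gabrg3, Gabbr1 and Gabbr2. Around the pathway the 6 genes of smallest p were named, with Vegfa, Gad1, Gad2 and Slc32a1. Alternatives were the replicate number as a block, array centring, quantile normalization, array weights, a robust prior with trend, covariates (a sex index or, added after seeing the data, the thalamus marker mean), the series' unmoderated test, medians of probe sets, single probe sets, and leaving out each array.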

Additional observations from a re-analysis of the deposited data

Results flagged for a closer look

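Of 72 groups of 4 arrays examined, 1 held an array far from the other 3, where chance gives about 1 in 20. Slc6a5, the glycine transporter of hindbrain and spinal cord neurons, had 0.11 in control 2. The other 3 control arrays had -0.04 to -0.03, so the gap took 0.929 of that group's whole range.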

How the results depend on the processing

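Of 442 member values under 17 alternatives, 413 kept their direction and 29 changed sign. No member passed the adjusted threshold in any setting, and the lowest adjusted p of any member was 0.129 (limma). The replicate block, the robust prior with trend and the t-test return the main difference by construction, so no sign could change there. The same holds for medians of probe sets in genes with 1 probe set. Over all genes, 1 gene passed after quantile normalization (Lhx6) and between 0 and 10 when 1 array was left out, the 10 without VEGF 4. At an unadjusted p the leave-one-out counts were 1526 to 2881 genes, the lowest 2 being 1526 without control 1 and 1627 without control 4. Members lower at that p numbered 2 to 6 when 1 array was left out, beside 1045 to 1664 of all genes, and 1 by the t-test, beside 1455. Members higher numbered 2 with the replicate block, beside 1074 of all genes, and 0 with the thalamus mean, beside 743. That covariate turned Gabra6 (-0.0095), Gabrb1 (-0.0776), Gabbr2 (-0.153), Glra3 (-0.0726), Slc12a2 (-0.0221), Slc6a9 (-0.14) and Gphn (-0.0107) to lower. Slc12a5 was 0.000618 with centred arrays and 0.00997 with the sex index. The causes were not tested.

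Leaving out 1 array at a time gave ranges that crossed 0: the chloride carrier balance -0.146 to 0.0955, Gabra2 -0.0202 to 0.0949, Gabra3 -0.211 to 0.0748, Gabrb2 -0.321 to 0.113, Gabrg1 -0.231 to 0.00337, Gabrg3 -0.246 to 0.084, Gabre -0.0905 to 0.0326, Gabbr2 -0.0538 to 0.227, Glra3 -0.0334 to 0.0674, Slc12a2 -0.0107 to 0.0516, Slc12a5 -0.133 to 0.141 and Slc6a9 -0.0556 to 0.08.

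Same-numbered arrays of the 2 groups deviated together in only some pairs, with correlations of 0.0523, -0.13, 0.454 and 0.301. These 4 values do not settle whether the numbers pair the samples. The replicate block put Gabrb1 beside the 6 members at an unadjusted p under 0.05, with p = 0.0182, gave an exact sign-flip p of 0.375 for Vegfa and 0.625 for the carrier balance, and moved the count of all genes to 2649. With 4 arrays a group precision is limited, and signal over background is unknown.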
